A study of Homo sapiens with 4 samples.

Results

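The gene set described here held the genes whose RNA was lower after dihydroberberine and higher again when sunitinib was given with it. The cells were A549, a human lung adenocarcinoma line in long established use, kept for 48 h with 25 μmol/L dihydroberberine plus 2 μmol/L sunitinib (the combination), with 25 μmol/L dihydroberberine, with 2 μmol/L sunitinib, or with neither drug (untreated). Each condition had 1 array, so no error between cultures could be computed and no test was run. Every value is the log2 signal of a probe set, a group of short probes that reads 1 stretch of RNA, and every difference is a difference of log2 values, in which 1 stands for a 2-fold change. The members were chosen by 2 measured differences. A gene was represented by the probe set with the highest mean over the 4 arrays. It entered the set when this probe set lay at or above 6.75, the median of all gene probe sets (called the floor), on all 4 arrays, when dihydroberberine minus untreated was -1 or lower, and when combination minus dihydroberberine was 0.8 or higher. Of 18132 genes on the array, 9831 lay above the floor throughout and 173 met the rule, which is 1.76% of the 9831.

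Dihydroberberine is a reduced form of berberine, a plant alkaloid known to inhibit mitochondrial respiration and to activate the energy sensor AMPK. Sunitinib blocks receptor tyrosine kinases, among them the VEGF and PDGF receptors. The set holds chromatin proteins, transcription factors, splicing factors and ubiquitin ligases beside enzymes and signalling proteins. Chromatin proteins and transcription factors set which genes are read, splicing factors shape the messenger, and ubiquitin ligases mark proteins for turnover. A lower array signal in a bulk RNA sample can come from less RNA per cell or from fewer cells that hold it, and the 2 cannot be told apart here.

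The promoters of 3 genes of the set are given first. TXNIP had the lowest dihydroberberine value relative to untreated cells, MAT2A was among the 10 genes with the largest differences on both sides of the rule, and LINC00473 is a non-coding RNA known as a target of CREB. Each window is the given strand, 5′ to 3′, from 250 bases before to 50 bases after a transcription start in RefSeq (assembly GRCh38.p14). Capitals mark every match, on either strand, to 1 of the following motifs. These are a carbohydrate response element (2 copies of CACGNG with 5 bases between them, the tandem site through which glucose-sensing MondoA and ChREBP act), the CRE (TGACGTCA) and its core (TGACG), the CCAAT box (CCAAT), the GC box (GGGCGG) and the TATA box (TATAAA). The core is contained in the CRE, so their matches can overlap. TXNIP lies on the minus strand (chr1:145996530-145996829) and has 2 start sites in the table, of which the first is shown.
TXNIP: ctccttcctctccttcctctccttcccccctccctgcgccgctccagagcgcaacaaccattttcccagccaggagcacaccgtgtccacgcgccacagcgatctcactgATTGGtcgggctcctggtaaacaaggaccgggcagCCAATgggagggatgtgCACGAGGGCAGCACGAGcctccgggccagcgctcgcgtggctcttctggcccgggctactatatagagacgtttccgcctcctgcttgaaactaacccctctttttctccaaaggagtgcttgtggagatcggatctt
LINC00473 lies on the minus strand (chr6:165987990-165988289).
LINC00473: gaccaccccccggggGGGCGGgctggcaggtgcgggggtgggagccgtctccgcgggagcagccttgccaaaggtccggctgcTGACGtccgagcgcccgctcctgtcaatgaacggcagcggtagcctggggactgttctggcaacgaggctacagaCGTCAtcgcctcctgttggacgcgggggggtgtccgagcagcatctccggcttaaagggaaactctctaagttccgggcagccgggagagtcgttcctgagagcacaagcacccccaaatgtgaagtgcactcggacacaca
MAT2A lies on the plus strand (chr2:85538918-85539217).
MAT2A: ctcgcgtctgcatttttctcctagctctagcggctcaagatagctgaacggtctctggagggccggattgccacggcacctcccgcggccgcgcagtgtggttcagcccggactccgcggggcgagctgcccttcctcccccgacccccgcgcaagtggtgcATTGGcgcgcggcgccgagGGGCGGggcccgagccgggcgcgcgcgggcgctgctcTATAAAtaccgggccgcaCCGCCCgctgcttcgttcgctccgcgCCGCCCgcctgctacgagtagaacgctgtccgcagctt
The TXNIP window held the carbohydrate response element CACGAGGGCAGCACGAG, starting 88 bases before the start site, and 2 CCAAT boxes. The LINC00473 window held 2 matches to the CRE core, no full CRE and 1 GC box. The MAT2A window held 1 CCAAT box, 3 GC boxes and a TATA box that begins 32 bases before the start site. Over all 35116 promoter windows of the table, 0.057% held the carbohydrate response element, 1.85% the CRE, 24.6% its core, 34.6% the CCAAT box, 45% the GC box and 11.5% the TATA box. A match describes letters in the window and does not show that a factor binds there. The table held a window for 137 of the 173 genes (79.2%), which is under the 80% set for comparing a gene set with all genes, so no such comparison was made.

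Several measures of the arrays as a whole differed between the conditions. Control probe sets for 18S rRNA and for Alu repeats were 0.68 and 0.41 lower with dihydroberberine than untreated and 0.45 and 0.44 higher in the combination than with dihydroberberine. The background controls rich in G and C (15 to 25 per probe) read 6.95 in the combination, 7.15 with dihydroberberine, 6.99 with sunitinib and 6.7 untreated at their medians, so levels near 7 may be background where probes are rich in G and C. Controls with 3 to 14 G or C read 3.47, 3.45, 3.48 and 3.46 on the combination, dihydroberberine, sunitinib and untreated arrays. The G and C content of the gene probe sets was not examined. The log2 difference between the 3′ and 5′ probe sets of ACTB, which depends on RNA integrity and labelling, was 0.82, 0.63, 0.85 and 0.91 on the combination, dihydroberberine, sunitinib and untreated arrays. The 75th percentile of all gene probe sets was 0.12 lower with dihydroberberine than untreated. Markers of A549 were above the floor for 7 of 10 genes, with the keratins KRT8 and KRT18 among them and CDH1, EPCAM and NKX2-1 under it. Of 9 markers of immune, endothelial and stromal cells, CD68 and VWF lay above the floor on all arrays, PTPRC, CD3E, PECAM1, COL1A1, COL1A2 and DCN on none, and CD14 on the untreated array. Their summed linear signal was 598 in the combination, 925 with dihydroberberine, 686 with sunitinib and 1192 untreated. Their part in the differences given next was not tested.

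The rule places dihydroberberine below both untreated and the combination, and it was the lowest of the 4 arrays for all 173 genes, for 119 of 133 genes that were lower with dihydroberberine but outside the set, and for 31.8% of all genes above the floor. The median log2 level was 9.23 in the combination, 8.08 with dihydroberberine, 9.37 with sunitinib and 9.48 untreated. The difference between dihydroberberine and untreated ran from -4.43 to -1.004 with a median of -1.28, and combination minus dihydroberberine ran from 0.80 to 2.63 with a median of 1.13. These contrasts chose the genes and are given as a description. The dihydroberberine array enters both of them with opposite sign, so a low reading on that array alone moves a gene towards both thresholds. Of all genes above the floor, 3.11% (306 genes) lay at or below -1 for dihydroberberine minus untreated and 4.9% (482 genes) lay at or above 0.8 for combination minus dihydroberberine. The opposite pattern, 1 or more higher with dihydroberberine and 0.8 or more lower in the combination, was met by 20 genes, 0.203% of all.

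**Figure D1:**
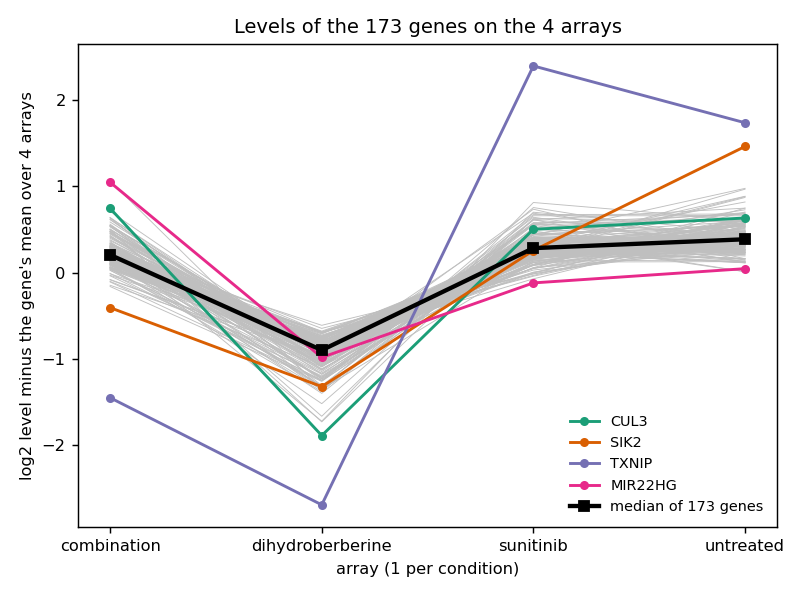
Log2 level of each of the 173 genes on the combination, dihydroberberine, sunitinib and untreated arrays (x axis), less the gene's own mean over the 4 arrays (y axis). Grey lines are single genes, coloured lines 4 named genes and the black line the median. TXNIP stays low in the combination, whereas MIR22HG lies above its untreated level there.

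**Figure D2:**
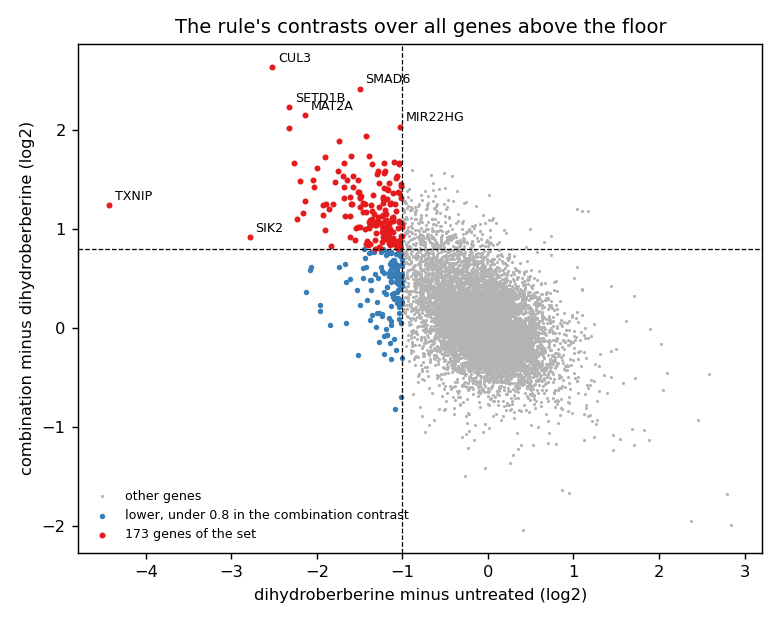
Dihydroberberine minus untreated (x axis, log2) against combination minus dihydroberberine (y axis, log2) for 9831 genes, 1 point each. Dashed lines mark the thresholds of -1 and 0.8; the 173 genes of the set are red, and the 133 genes that were lower but under 0.8 on the y axis are blue.

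The sunitinib array did not enter the rule except through the floor and the choice of the probe set. Dihydroberberine minus sunitinib was -1 or lower for 139 of the 173 genes (80.3%), against 2.45% of all genes and 26 of the 133 genes that were lower with dihydroberberine but outside the set. It uses the dihydroberberine array again and so is no separate reading of it. Sunitinib minus untreated had a median of -0.10 over the set and -0.05 over all genes above the floor, with a range from -1.20 to 0.66. SIK2 was the only gene of the set at -1 or lower (0.578%, background 0.397%). Sunitinib minus untreated was below 0 for 116 genes of the set (67.1%), against a background of 57.1%. In 16 genes (9.25%, background 5.61%) sunitinib alone was 0.5 or more below untreated, and in 2 (1.16%, background 2.27%) it was 0.5 or more above. In the 133 comparison genes the sunitinib median was -0.44, and 56 of them lay at or below -0.5.

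How far the combination came back towards the untreated level differed between genes. The share of the dihydroberberine decrease that was regained in the combination had a median of 84.6%, with a range from 28.0% to 197%. Both ends, TXNIP and MIR22HG, have dihydroberberine levels below the 7.15 median of the background controls rich in G and C, as have 23 genes of the set. The share of such genes may be limited by background. Over the other 150 genes it ran from 32.9% to 161%. It was 75% or more for 133 of the 173 genes and under 50% for 4. The share is the ratio of the 2 contrasts that chose the genes. Their thresholds set much of its size, so the median and these counts are a description. Combination minus untreated is the sum of the same 2 contrasts, so its counts are a description too. It lay within 0.5 of 0 for 140 genes (80.9%), close to the 80.4% of all genes for which this holds. The combination was above untreated for 43 genes (24.9%, background 46.5%). Its difference from untreated was -1 or lower for 5 genes, TXNIP, SIK2, LPCAT1, UBE4B and CCNF (2.89%, background 1.33%), and 0.5 or more for 6, MIR22HG, SMAD6, ZKSCAN1, GSK3B, UBL3 and EIF5 (3.47%, background 9.36%). ZKSCAN1 and UBL3 were named after their values were seen. Against sunitinib alone, the combination was higher for 71 genes of the set (41%, background 51.4%), 0.5 or more lower for 12 (6.94%, background 2.19%) and 0.5 or more higher for 5 (2.89%, background 5.2%).

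The genes at the edges of the rule show how narrow its steps are. GJC1, PIK3C2B and ZIC2 lay just inside the first threshold at -1.004, -1.007 and -1.009, whereas C2orf69 and RGMB at -0.996 and IER5 at -0.994 lay just outside. For the second threshold CLEC16A at 0.802, BRD3 at 0.807 and EIF1AD at 0.807 lay just inside, whereas NHSL3 and NAP1L2 at 0.799 and ANKLE2 at 0.787 lay just outside.

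By function, 160 of the 173 genes were placed by hand in 8 role groups after their values were known, and 13 were not grouped. The largest group held 33 genes for chromatin proteins, the machinery that packs DNA and marks histones. Dihydroberberine minus untreated ran from -2.32 to -1.02 in this group with a median of -1.31, and sunitinib alone was below untreated for 28 of the 33 (in the whole set for 67.1%, in all genes for 57.1%). The same count was 21 of 26 for signalling, 16 of 24 for transcription factors and 11 of 16 for traffic, polarity and cytoskeleton. It was 13 of 23 for metabolism and mitochondria, 9 of 18 for ubiquitin and 8 of 17 for RNA processing and translation. SETD1B, the catalytic subunit of a histone H3 lysine 4 methyltransferase, read 9.42 in the combination, 7.19 with dihydroberberine, 9.54 with sunitinib and 9.51 untreated. It was low on the dihydroberberine array alone, at -2.32 against untreated and 2.23 for combination minus dihydroberberine. HIRA, a chaperone that deposits histone H3.3, read 9.20 in the combination, 7.72 with dihydroberberine, 9.29 with sunitinib and 9.91 untreated. Here the combination regained 67.4% of the decrease, and sunitinib alone was also lower by 0.62. HDAC4, a class IIa histone deacetylase that salt-inducible kinases keep out of the nucleus, read 9.84 in the combination, 8.12 with dihydroberberine, 9.92 with sunitinib and 10.03 untreated. ARID1A and ARID1B, the alternative DNA-binding subunits of the SWI/SNF remodelling complex, were -1.42 and -1.40 against untreated. ARID1A read 9.89, 9.04, 9.92 and 10.46 on the combination, dihydroberberine, sunitinib and untreated arrays. ARID1B read 7.80, 6.94, 7.83 and 8.34 on the combination, dihydroberberine, sunitinib and untreated arrays. For both of these the combination and sunitinib arrays gave nearly the same level, between the dihydroberberine and the untreated one. CREBBP, a histone acetyltransferase and partner of CREB, stood at -1.38 and regained 79.4%. EP400 and the acetyl-lysine reader BRD3 completed the remodelling genes of the set at -1.19 and -1.03.

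Transcription factors made up 24 genes, with dihydroberberine minus untreated between -1.93 and -1.01. MLXIP encodes MondoA, the glucose-sensing factor that drives TXNIP through the carbohydrate response element. MLXIP read 9.55 in the combination, 8.07 with dihydroberberine, 9.65 with sunitinib and 9.86 untreated. It regained 82.5%, against 28% for TXNIP. ZBED1, a zinc finger protein known to act on ribosomal protein genes, read 10.50 in the combination, 9.26 with dihydroberberine, 11.07 with sunitinib and 11.18 untreated. ZFHX3, a large homeobox factor, was among the 10 genes with the highest combination minus dihydroberberine (1.74) and read 9.32 in the combination, 7.58 with dihydroberberine, 8.95 with sunitinib and 9.18 untreated. E2F3, a cell cycle activator, stood at -1.11 with dihydroberberine and at 0.01 in the combination, both against untreated. WWTR1, which encodes the Hippo effector TAZ and was named after its values were seen, stood at -1.24 against untreated.

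RNA processing and translation were represented by 17 genes, of which 4 belong to a list of 38 splicing factors and kinases above the floor. TRA2A, a splicing activator, read 9.96 in the combination, 8.30 with dihydroberberine, 10.43 with sunitinib and 10.56 untreated. SRSF1, a founding member of the SR protein family, read 12.05 in the combination, 10.68 with dihydroberberine, 12.31 with sunitinib and 12.19 untreated. SRSF6, another SR protein, read 10.62 in the combination, 9.37 with dihydroberberine, 11.02 with sunitinib and 10.81 untreated. All 3 had their lowest level with dihydroberberine, and TRA2A was the only one whose combination level stayed 0.5 or more under untreated. LUC7L3, a U1-associated protein, was at -1.08. EIF5, the GTPase-activating factor of translation initiation, read 12.61 in the combination, 10.67 with dihydroberberine, 12.53 with sunitinib and 12.09 untreated. Its combination and sunitinib levels both exceeded untreated. RC3H1, which encodes the mRNA decay protein Roquin-1, read 8.77 in the combination, 7.04 with dihydroberberine, 8.90 with sunitinib and 8.43 untreated and likewise exceeded untreated on both of these arrays. The decay and poly(A) genes TENT4A, ZFP36L2, DCP2 and CNOT6 lay between -1.24 and -1.01 against untreated.

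Ubiquitin ligases, their adaptors and deubiquitinating enzymes gave 18 genes with a median of -1.45 for dihydroberberine minus untreated. CUL3, the scaffold of the ligases that recognise substrates through BTB proteins such as KEAP1, read 11.31 in the combination, 8.68 with dihydroberberine, 11.07 with sunitinib and 11.20 untreated. This was the highest combination minus dihydroberberine of all genes above the floor (2.63), a 6.2-fold difference, and the combination ended 0.11 above untreated. UNKL, a zinc finger protein of the ligase list, read 10.65 in the combination, 8.64 with dihydroberberine, 11.17 with sunitinib and 10.96 untreated. USP7, the deubiquitinating enzyme of MDM2 and p53, read 10.86 in the combination, 8.97 with dihydroberberine, 10.72 with sunitinib and 10.71 untreated. All 3 regained over 75% of the decrease. The 3 other USP7 probe sets above the floor gave smaller decreases, -0.83 to -0.58 beside -1.74, and none met both sizes of the rule. A dimmer USP7 probe set, under the floor with dihydroberberine, gave -1.22 and a combination minus dihydroberberine of 1.58. The only other UNKL probe set above the floor (9.83 with sunitinib) gave -0.99 beside -2.33, and 0.81 for combination minus dihydroberberine. CCNF, the F-box protein cyclin F, read 8.33 in the combination, 7.17 with dihydroberberine, 8.62 with sunitinib and 9.33 untreated. UBE4B, a ubiquitin chain elongation factor, read 8.75 in the combination, 7.92 with dihydroberberine, 9.13 with sunitinib and 9.76 untreated. RHOBTB1, a BTB protein that binds CUL3, read 8.55 in the combination, 7.63 with dihydroberberine, 8.55 with sunitinib and 9.24 untreated. These 3 had sunitinib levels 0.63 to 0.71 below untreated and were among the 5 genes of the set with the lowest sunitinib minus untreated. The 2 other RHOBTB1 probe sets above the floor gave -0.66 and -0.54 against untreated. Their combination minus dihydroberberine was 0.07 and -0.08, so they did not read the regain. USP22, MARCHF6 and the CUL3-list gene BTBD7 were at -1.28, -1.38 and -1.02 against untreated. Another bright MARCHF6 probe set (9.89 with sunitinib) gave -0.42 and a combination minus dihydroberberine of -0.11, whereas a dimmer one (8.42) gave -1.18 and 0.75. Other BTBD7 probe sets above the floor gave -0.54 and -0.33 against untreated, and 1.07 and 1.13 for combination minus dihydroberberine.

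Signalling genes numbered 26. SIK2, a salt-inducible kinase that restrains CREB coactivators, read 9.11 in the combination, 8.19 with dihydroberberine, 9.77 with sunitinib and 10.98 untreated. It was 6.88-fold lower with dihydroberberine, had the lowest sunitinib minus untreated of the set (-1.20) and regained 32.9%. FZD5, a Wnt receptor, read 8.83 in the combination, 7.55 with dihydroberberine, 9.13 with sunitinib and 9.68 untreated. FZD1, another Frizzled receptor, read 8.21 in the combination, 7.32 with dihydroberberine, 8.73 with sunitinib and 8.88 untreated. The Wnt pathway list had 4 of its 26 genes above the floor in the set: both receptors, the β-catenin cofactor BCL9L (-1.11) and the kinase GSK3B (-1.05), which restrains the pathway. By the probe sets that represent them, the receptors regained 59.9% and 56.8%, whereas BCL9L and GSK3B regained 98.0% and 158%. Other probe sets above the floor did not bear out this contrast. For BCL9L 3 others gave -1.16, -0.64 and -0.38 against untreated, and 0.70, 0.48 and 0.01 for combination minus dihydroberberine. For GSK3B the other gave -0.01 and -0.06. For FZD5 3 others gave -2.10, -0.46 and 0.40 against untreated, and 1.21, -0.33 and -0.22 for combination minus dihydroberberine. SMAD6, an inhibitor of BMP signalling, read 9.66 in the combination, 7.25 with dihydroberberine, 8.74 with sunitinib and 8.75 untreated. Its combination level was 0.91 above untreated, while sunitinib alone left it at the untreated level. The other SMAD6 probe sets read 7.03 and 7.25 in the combination, 6.89 and 7.26 with sunitinib and 6.90 and 7.11 untreated. A rise of that size was thus read only by the probe set that represents SMAD6. SKI, a repressor of SMAD signalling, was at -1.22. PDPK1, the kinase that activates AKT, and PIK3C2B, a class II phosphoinositide 3-kinase, were at -1.35 and -1.01.

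Metabolic and mitochondrial genes numbered 23. TXNIP, the inhibitor of thioredoxin and of glucose uptake, read 8.30 in the combination, 7.06 with dihydroberberine, 12.14 with sunitinib and 11.49 untreated. This was 21.5-fold lower with dihydroberberine than untreated, and its combination level was still 9.1-fold below untreated. Its dihydroberberine level lay below the median of 7.15 of the background controls rich in G and C on that array, so the true decrease may be larger. Sunitinib alone gave the highest TXNIP level of the 4 arrays. MAT2A, the enzyme that makes the methyl donor S-adenosylmethionine, read 12.78 in the combination, 10.64 with dihydroberberine, 12.999 with sunitinib and 12.77 untreated. It was 4.4-fold lower with dihydroberberine, and the other 3 arrays differed by at most 0.23. LPCAT1, which remodels phosphatidylcholine and is prominent in lung, read 9.44 in the combination, 8.34 with dihydroberberine, 10.03 with sunitinib and 10.57 untreated. GPAM, the first enzyme of glycerolipid synthesis, read 8.5 in the combination, 6.96 with dihydroberberine, 9.05 with sunitinib and 8.66 untreated. SCD, which desaturates fatty acids, read 12.83 in the combination, 11.96 with dihydroberberine, 13.05 with sunitinib and 13.04 untreated. GPAM and SCD were the only members from a list of 18 fatty acid synthesis genes above the floor. GPAM regained 90.5%, SCD 80.4% and LPCAT1 49.1%. The 3 other probe sets of SCD, all above the floor, lay at -1.29 to -1.27 for dihydroberberine minus untreated but at 0.41 to 0.66 for combination minus dihydroberberine, so none met the rule. They also read sunitinib 0.42 to 0.56 below untreated, where the probe set that represents SCD read 0.01 above.

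The 16 genes for traffic, polarity and cytoskeleton lay between -2.05 and -1.004 against untreated. UNC119B, a carrier of myristoylated ciliary proteins, read 9.67 in the combination, 8.18 with dihydroberberine, 10.05 with sunitinib and 10.23 untreated. GET1, a receptor for tail-anchored proteins in the endoplasmic reticulum, read 9.66 in the combination, 8.05 with dihydroberberine, 10.03 with sunitinib and 10.05 untreated. DNAJA1, a co-chaperone of HSP70, read 11.64 in the combination, 10.45 with dihydroberberine, 12.23 with sunitinib and 11.66 untreated. DNAJA1 was highest with sunitinib, one of the 5 highest sunitinib minus untreated values of the set (0.58), beside TXNIP (0.66), RC3H1 (0.47), EIF5 (0.43) and GPAM (0.39). The 4 other probe sets of DNAJA1, all above the floor, gave 0.01 to 0.23 for the same difference, so its place among the 5 rests on 1 probe set. The other 3 genes of the set were long non-coding RNAs. LINC00473 read 8.67 in the combination, 7.52 with dihydroberberine, 9.45 with sunitinib and 9.45 untreated. The other probe set of LINC00473, under the floor with dihydroberberine, gave -0.72 against untreated and only 0.15 for combination minus dihydroberberine. Its regain therefore rests on 1 probe set. NORAD, which binds PUMILIO proteins, read 11.21 in the combination, 9.70 with dihydroberberine, 10.94 with sunitinib and 10.77 untreated. MIR22HG, the host transcript of miR-22, read 8.82 in the combination, 6.79 with dihydroberberine, 7.65 with sunitinib and 7.82 untreated. The combination brought MIR22HG 2-fold above untreated and LINC00473 to 0.79 below it.

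In 28 gene lists written from general knowledge, 34 of 696 distinct genes above the floor belonged to the set (4.89%, against 1.76% of all genes). The lists were written with earlier results in view, so this share is a description. Chromatin remodelling (4 of 33), splicing (4 of 38), RNA decay (4 of 37) and the Wnt pathway (4 of 26) held the most genes. In 13 lists no gene met the rule. These included DNA replication (0 of 39), mitosis (0 of 32) and cholesterol synthesis (0 of 18), whose genes were lower with dihydroberberine at a median of -0.48, -0.41 and -0.51 and had combination minus dihydroberberine medians of -0.09, -0.14 and 0.05. Ribosomal proteins (0 of 40), the proteasome (0 of 27) and the respiratory chain (0 of 33) had dihydroberberine medians of 0.08, -0.14 and -0.11.

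**Figure D3:**
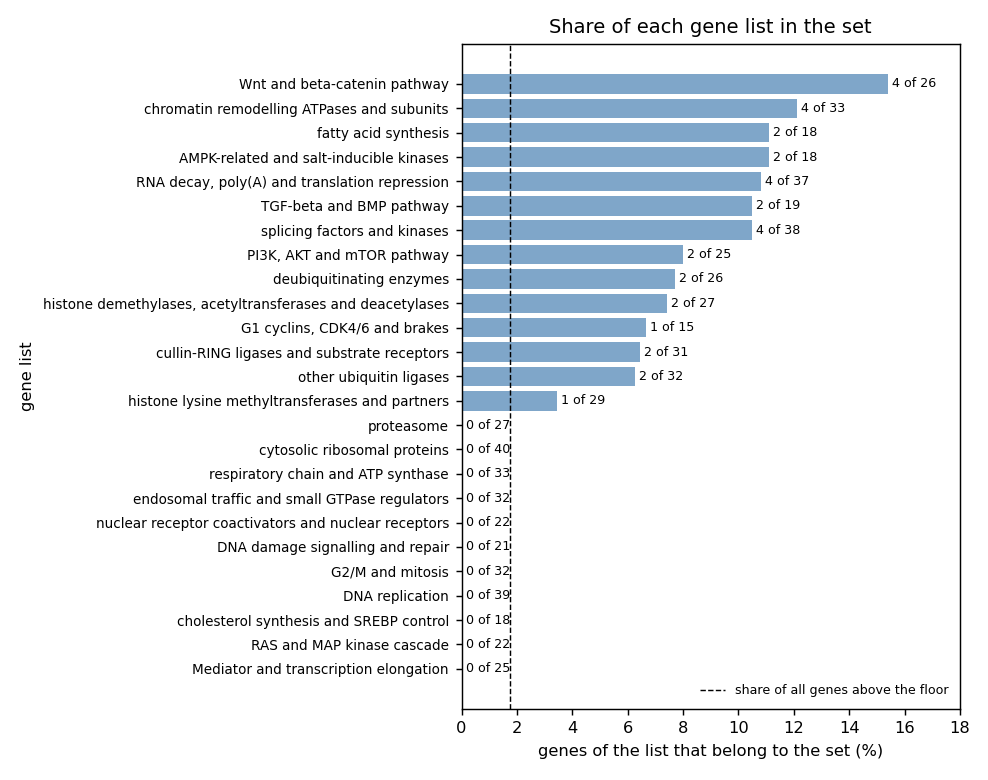
Percentage of the genes of each list above the floor that belong to the set (x axis), for the 25 lists with 10 or more such genes (y axis). Numbers beside the bars give members and list size, and the dashed line marks the 1.76% of all genes.

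In transcript features, 170 of the 173 genes are protein-coding and 3 are long non-coding RNAs. Their genomic span in RefSeq, from the first to the last base of the gene with introns, had a median of 53.9 kb, against 28.9 kb for all genes above the floor and 25.9 kb for the 133 comparison genes. A span of 40 kb or more was found for 61.8% of the set, 40.4% of all genes and 38.3% of the comparison genes. The 309 genes that passed the combination contrast alone had a median of 58.8 kb. Divided by span into 5 classes of equal size, the 9828 genes with a span contributed 21, 22, 23, 56 and 51 genes to the set, shortest to longest. The median number of RefSeq transcripts was 5 for the set and 5 for all genes. Divided the same way by their level with sunitinib, the genes contributed 6, 43, 52, 51 and 21 genes, lowest to highest. The rule itself limits the lowest class (6.75 to 7.88). A gene had to stay above the floor with dihydroberberine and be 1 or more higher untreated.

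The probe sets that stood for these genes were of a different make-up than those of all genes. Probe sets whose names end in _s_at, which can match transcripts of different genes, stood for 35.3% of the set and 21.4% of all genes. Those ending in _x_at, in which some probes resemble unrelated sequence, stood for 8.67% and 13.9%. Those ending in _a_at, which match several transcripts of 1 gene, stood for 31.8% and 46.9%, and those with no such letter for 24.3% and 17.8%. The 309 genes that passed the combination contrast alone had a similar make-up to the set, with 34%, 6.8%, 31.7% and 27.5% in the same order. The 133 comparison genes had 21.1%, 11.3%, 42.9% and 24.8%. In the 61 _s_at and 15 _x_at probe sets of the set the signal of related sequences cannot be told apart. Among the genes described above, TXNIP, SIK2, CUL3, MAT2A, EIF5, SRSF1, SRSF6, HDAC4, LPCAT1, USP7, DNAJA1, GET1, GPAM, SCD, ZFHX3, ARID1B, RHOBTB1, GSK3B, CREBBP, BRD3, E2F3, DCP2, ZFP36L2, LUC7L3 and MARCHF6 rest on _s_at probe sets, and CCNF, MLXIP, NORAD, BCL9L, PIK3C2B and GJC1 on _x_at probe sets.

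Other probe sets of the same genes were the only further reading of these RNAs. They share the arrays and the RNA, so they bear on the probes and not on the cultures. Of the 173 genes 159 had at least 1 other probe set and 14 had none. Of 431 other probe sets, 198 in 110 genes lay above the floor on all arrays. Of these, 171 (86.4%) were lower with dihydroberberine than untreated, and 80 (40.4%) at or below -1, with a median of -0.77. In genes outside both contrasts 55% were lower and 0.963% at or below -1, with a median of -0.04. In the 133 comparison genes 94.9% were lower and 39.2% at or below -1, with a median of -0.87. The decrease in other probe sets was thus no more frequent in the set than in the comparison genes. Both directions of the rule, at any size, were met by 159 of the 198 (80.3%). The share was 33.1% for the probe sets of genes outside both contrasts and 67.1% for those of the 133 comparison genes. Both sizes of the rule were met by 62 (31.3%), against 0.267% and 6.96%. In 84 of the 110 genes every other probe set above the floor was lower with dihydroberberine, in 41 at least 1 passed both sizes, in 26 at least 1 was higher and in 12 none was lower.

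Agreement followed the signal of the other probe set, although the floor shaped the lowest range. In probe sets under 7.5 on the sunitinib array, the median dihydroberberine minus untreated was -0.03 (n = 38). From 7.5 to 8.5 it was -0.56 (n = 66), from 8.5 to 9.5 it was -1.09 (n = 51), and at 9.5 and above it was -1.28 (n = 43). All 43 of the last range were lower with dihydroberberine and 29 passed both sizes of the rule. In genes outside both contrasts the same ranges had medians of 0.05, -0.03, -0.09 and -0.07. The floor was asked of the dihydroberberine array too, so under 7.5 few decreases of 1 or more could remain. A further 62 probe sets of the set's genes met the floor with sunitinib but not on all arrays. Their median dihydroberberine minus untreated was -0.94, against -0.13 for such probe sets of genes outside both contrasts. The SD between probe sets of 1 gene for this difference had a median of 0.12 over 5563 genes with 2 or more above the floor, and 0.49 over the 110 genes of the set.

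**Figure D4:**
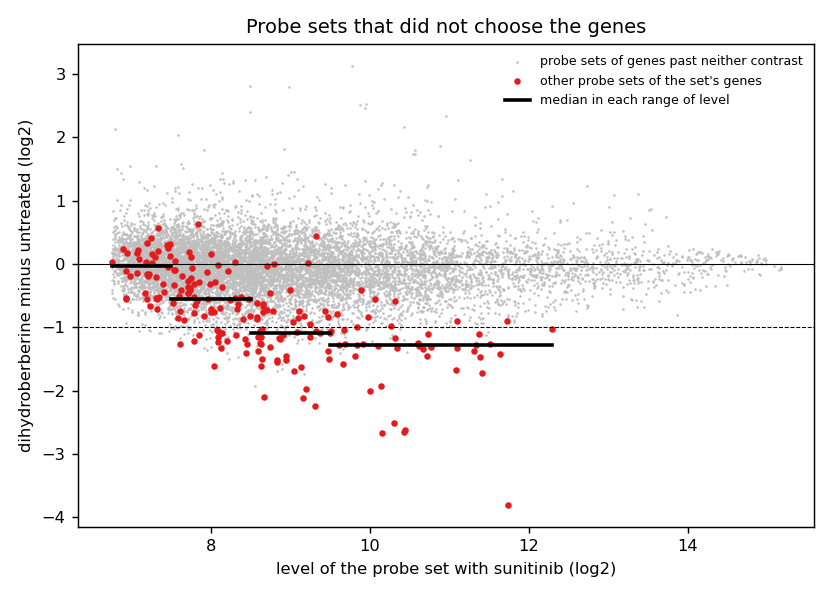
Dihydroberberine minus untreated (y axis, log2) of probe sets that did not represent their gene, against their level with sunitinib (x axis, log2). Red points are the 198 probe sets of the set's genes above the floor, grey points those of genes past neither contrast, and black lines the red medians of -0.03, -0.56, -1.09 and -1.28 in 4 ranges of level. The floor on all arrays limits how low points of the lowest range can lie.

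All 5 other probe sets of SRSF1 lay above the floor and past both sizes of the rule, at -1.72 to -1.38 against untreated. MAT2A had 4 others above the floor, at -1.35 to -1.25, which is less than the -2.14 of the probe set that represents it. The 5 other probe sets of EIF5 above the floor also passed both sizes, at -1.42 to -1.02, and 4 of DNAJA1 lay at -1.27 to -0.89. These genes gave the same direction in every such probe set. TXNIP had 4 others, at -3.92 to -2.63, of which 2 lay under the floor with dihydroberberine, 1 of these in the combination too. Their combination minus dihydroberberine was 0.94, 0.34, 0.06 and 0.91, so the low level was read by all of them and the regain by fewer. CUL3 had 2 others at -2.51 and -2.36, both under the floor with dihydroberberine, and a dim one at -0.08. The other probe sets above the floor of UNC119B (-1.98) and GET1 (-2.01 and -1.93) lay within 0.1 of the probe set that represents the gene. ZBED1 (-2.65 beside -1.93), MLXIP (-2.24 beside -1.79) and RTN4IP1 (-1.61 beside -1.5), a mitochondrial protein, were lower in the other one. Dim probe sets under the floor did not follow in GET1 (-0.04 to 0.25), MLXIP (-0.08 and 0.16) and RTN4IP1 (0.35).

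In other genes the probe sets split. TRA2A had 3 others at -2.67 to -2.12 and 1 at 0.64, whose combination minus dihydroberberine was -0.66. SIK2 had 2 others at -2.65 and -2.59 and 3 at -0.57 to -0.48, of which the brightest had a combination minus dihydroberberine of -0.75. WWTR1 had 1 at -1.25 and 1 at 0.00, with sunitinib levels of 8.62 and 8.79. For GSK3B the only other probe set gave -0.01, and for HIRA it gave -0.58. The 5 others of HDAC4 were all under the floor, at -0.13 to 0.28. The 8 genes with the highest median of the others above the floor were FLCN (0.33), NUMBL (0.32), RBM12B (0.25), SMAD6 (0.23), ING5 (0.19), TNRC18 (0.17), ZZEF1 (0.16) and ZNF395 (0.11). Each of these 8 had 1 other probe set above the floor, with a sunitinib level between 6.89 and 7.73. The floor on all arrays also removes probe sets because they were low with dihydroberberine. In RBM12B such a probe set, at 7.57 with sunitinib, gave -1.79 and a combination minus dihydroberberine of 1.89, and in SMAD6 one at 7.26 gave -0.47 and 0.61. With the floor asked of the sunitinib array alone, a choice made after seeing the data, 260 other probe sets of 127 genes remained. Of these 213 (81.9%) followed both directions, against 34% in genes outside both contrasts, and 90 (34.6%) passed both sizes, against 0.618%.

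**Figure D5:**
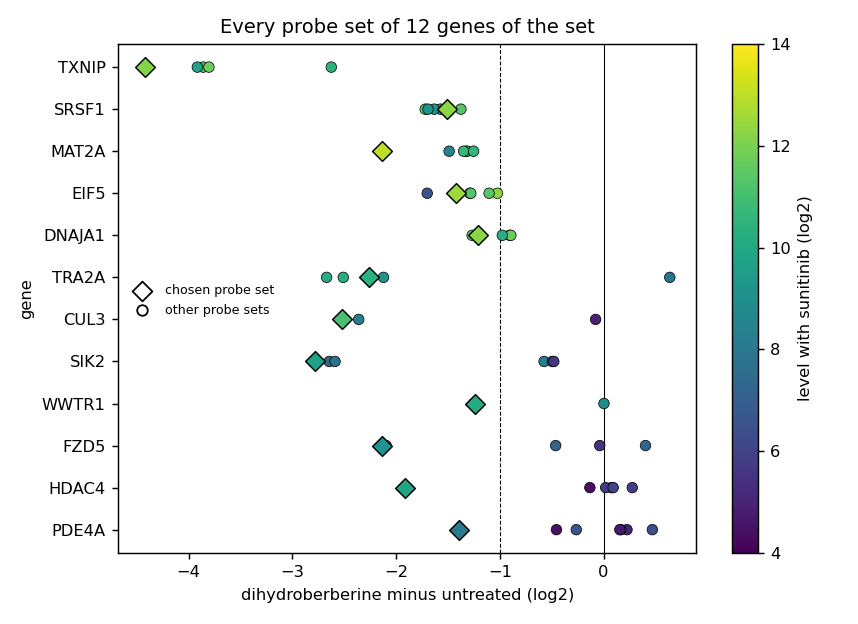
Dihydroberberine minus untreated (x axis, log2) of every probe set of 12 genes, picked after their values were seen to show agreement and splits (y axis). Diamonds are the probe sets that represent the gene, circles the others, and colour gives the level with sunitinib (log2). SRSF1 and MAT2A keep all points below -1, whereas SIK2 and TRA2A split.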

How the data were processed

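RNA of 4 A549 cultures was labelled with a 3′ IVT kit, per the labels' protocols. The authors deposited 1 value per probe set and array on a log2 scale, a scale inferred from a range of 3.01 to 15.4. Per the submitters' processing notes, the program used was Affymetrix Expression Console. How probes were summarized and arrays normalized is not given in the sources used here, nor is the program's version. An Agilent array stands in the design text and Cy3 in the label field, whereas probe set names and controls are Affymetrix ones.

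Of 49293 gene probe sets, 44988 carried 1 symbol in the platform annotation, 1832 carried several and 2473 were unnamed here. Gene span and transcript numbers came from RefSeq (GRCh38.p14), where all 173 genes matched. Differences, counts and medians were computed with Python 3.11.15, pandas 2.3.3 and numpy 2.4.6. The choice of probe set and the member rule were run on simulated data with planted decreases far above the simulated noise. That run checks the code and says nothing about the error in these arrays. With 1 array per condition no test was made, and nothing shows whether differences exceed the spread between cultures. A comparison group of 133 genes met the first contrast and not the second.

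The members and gene lists were chosen with earlier results of these data known. Genes were named by rule: the 10 lowest dihydroberberine minus untreated, the 10 highest combination minus dihydroberberine, the 5 highest and 5 lowest sunitinib minus untreated, 3 on each side of each threshold, the 8 with the lowest and the 8 with the highest median dihydroberberine minus untreated over other probe sets, and up to 5 genes per list. LINC00473 and the motifs were picked after values were seen. Alternatives were tried for the probe set of a gene, the floor, the thresholds and the normalization.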

Additional observations from a re-analysis of the deposited data

Results flagged for a closer look

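Although every gene of the set was lower with dihydroberberine than untreated, 71 of the 173 genes (41%, below the 51.4% of all genes above the floor) were higher in the combination than with sunitinib alone, where the labelled conditions again differ by dihydroberberine. The difference between the 2 backgrounds was not tested, since each condition has 1 array. MIR22HG (1.17 for combination minus sunitinib against -1.03 for dihydroberberine minus untreated) and SMAD6 (0.93 against -1.5) had the highest combination minus sunitinib of the set, and TXNIP was low in both (-3.84 against -4.43). For SMAD6 this rests on the probe set that represents it. The other SMAD6 probe sets read 7.03 and 7.25 in the combination and 6.89 and 7.26 with sunitinib.

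Background control probe sets with 15 to 25 G or C bases, which match no gene, were 0.45 higher with dihydroberberine than untreated at the median of 11 probe sets, opposite in direction to the genes of the set. For the 12 with 3 to 14 G or C bases this difference was -0.003.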

How the results depend on the processing

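The number of genes changed with the probe set that stood for a gene, the floor and the thresholds. Averaging every probe set of a gene gave 49 genes (40 of them in the set of 173). It was 115 with the mean of those above the floor (102 in the set), 68 with the second brightest probe set (35 in the set) and 53 with probe sets whose names carry no suffix letter (45 in the set). The smaller number of genes above the floor, 8016, 5561 and 2560 for the first, the second brightest and the last choice, is part of this. A floor at the 75th percentile left 49 genes. Stricter thresholds (-1.5 and 1.2) left 34 genes with medians of -1.77 for dihydroberberine minus untreated and 1.48 for combination minus dihydroberberine, of which 100% were 1 or more lower with dihydroberberine than with sunitinib. Looser thresholds (-0.8 and 0.6) gave 340 genes with medians of -1.10 and 0.99 and 55.3%. Quantile normalization gave 132 genes, all in the set, centring on the median 189 and no floor 227. Chosen after seeing the data, sunitinib in place of untreated in the first contrast gave 204 genes (139 in the set), and sunitinib in place of the combination in the second gave 226 (165 in the set). The medians of sunitinib minus untreated (-0.13 to -0.03) and combination minus untreated (-0.29 to -0.15) kept their sign under all 10 planned settings. Both use the untreated array, which enters the rule, and the second is the sum of the rule's 2 contrasts, whose thresholds are unequal. Their stable sign is therefore no separate support. Other probe sets followed both directions in 66.8% when all 431 were counted, in 76% after quantile normalization, in 81.9% with the floor asked of the sunitinib array alone (added after seeing the data), and in 94.7% of those at or above 8.5 with sunitinib, a level chosen after seeing the data. Of the list genes, 12 met the rule when probe sets were averaged, against 34.

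No paired analysis was possible because each condition has 1 array, and leaving out an array leaves no contrast. The error between cultures is unknown, and both contrasts of the rule rest on 1 dihydroberberine array. Levels within about 0.5 of the floor overlap those of the background controls rich in G and C, so differences of dim probe sets are less certain.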
